A study of Homo sapiens with 10 samples.

Results

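The genes of retinoid synthesis and response described here were 10 symbols: ALDH1A1, ALDH1A2, ALDH1A3, CYP26A1, CYP26B1, RARA, RARB, RARG, CRABP2 and DHRS3. Each symbol matched 1 row of the deposited table, which held 58870 genes. They were measured by mRNA sequencing in LS180, an established human colorectal cancer line, grown without drug and carrying CRISPR interference, in which an inactive Cas9 is led by a guide RNA to a promoter and represses it. The controls were lines NTC1 and NTC2 with non-targeting guides, and the other 3 lines, sg1, sg2 and sg3, carried guides against RNASE1, a secreted ribonuclease. Each line had 1 library lettered A and 1 lettered B, 10 libraries in all. The labels do not say what the letters mark, nor whether the libraries of a line came from separate cultures, and p-values therefore speak only of how these libraries vary, which may be technical. The genes were chosen by their roles and by 1 measured value, the level of ALDH1A1, which was higher in B than in A in all lines. That difference is therefore given as a description without a test, and the question asked was whether the other genes moved with it.

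Retinoic acid is made from vitamin A. Retinol is oxidised to retinal, retinal dehydrogenases of the ALDH1A family oxidise retinal to retinoic acid, and enzymes of the CYP26 family break it down. Retinoic acid binds the nuclear receptors RARA, RARB and RARG, which pair with retinoid X receptors on DNA and switch on target genes, among them RARB, CYP26A1 and DHRS3 themselves. In the gut, retinoids are known for roles in epithelial differentiation and in immune cell homing.

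Receptor pairs of this kind bind direct repeats of a short half-site, and the repeats in front of RARB and CYP26A1 are textbook retinoic acid response elements. They are shown because the 2 genes that carry them were the classical targets among the 10. RefSeq promoter windows on GRCh38.p14, from 250 bases before to 50 after a start, covered all 10 genes with 19 windows. Each was searched on both strands for a pair of hexamers in the same orientation, 5 bases apart. The hexamers searched were the consensus AGGTCA with 3 variants, which were AGTTCA in the first place, then GGGTCA as another, and finally GGTTCA. The pair was found in 31 of 35116 windows of all genes (0.0883%), and 2 of these belonged to the 10 genes. With 1 or 2 bases between the hexamers no window of the 10 genes matched, against 0.131% and 0.0399% of all windows. The matches are given with the half-sites in capitals and the spacer in lower case, the second on the strand opposite to the gene:
RARB: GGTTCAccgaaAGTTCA
CYP26A1: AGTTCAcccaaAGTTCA
The RARB repeat lay from base -53 to base -37 relative to the start, at chr3:25428210-25428226, and the CYP26A1 repeat from -90 to -74, at chr10:93073803-93073819. The other windows of both genes had no match. The CYP26A1 repeat lies inside the annotated gene, which begins at 93073475, before a later start. The bases upstream of that later start overlap annotated exons. The 250 bases before that RARB start, at chr3:25428013-25428262 on the plus strand, overlap no exon of GENCODE release 29 and read, with the half-sites in capitals:
RARB: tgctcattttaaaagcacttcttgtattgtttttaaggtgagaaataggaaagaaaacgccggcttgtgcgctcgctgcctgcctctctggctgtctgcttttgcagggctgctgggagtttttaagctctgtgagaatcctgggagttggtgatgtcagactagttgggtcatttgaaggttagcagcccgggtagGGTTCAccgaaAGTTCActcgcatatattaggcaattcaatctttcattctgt
A match is a description of the letters and says nothing about binding in these cells.

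The libraries held 39026564 to 45050950 expected counts, and 15450 to 15830 genes had at least 10 counts. RNASE1 checked the labels: it stood at 16.3 to 23.8 CPM (counts scaled to library size by TMM) in the 4 NTC libraries and at 1.02 to 3.76 CPM in the 6 guide libraries. All 10 colorectal epithelium markers were above 1 CPM on average, among them EPCAM, CDX2 and VIL1. The 5 endothelial genes were all under 1 CPM on average and summed to at most 0.358 CPM, with KDR at 0. Of the 8 fibroblast genes 5 were under 1 CPM, and the sum was at most 5.31 CPM, with COL1A2 at 0. The leukocyte list was not low as a whole. Of its 6 genes 4 were under 1 CPM, with PTPRC at 0, but the 6 summed to 35.9 to 46.8 CPM. In bulk samples, fewer cells that express a gene and less RNA per cell cannot be told apart.

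Across all libraries, ALDH1A1 was the dominant retinal dehydrogenase and the 2 classical target genes RARB and CYP26A1 were at or near 0. Levels of different genes are compared as CPM per kilobase of exon. ALDH1A1 stood at 112 ± 28.7 (SD over 10 libraries, range 77.7 to 166). RARG followed at 9.32 ± 0.521 (8.55 to 10.1), then RARA at 6.22 ± 0.349 (5.66 to 6.68) and DHRS3 at 3.42 ± 0.320 (2.95 to 4.00). ALDH1A3 was at 0.941 ± 0.0596 (0.863 to 1.02), CRABP2 at 0.518 ± 0.111 (0.363 to 0.722) and CYP26B1 at 0.0795 ± 0.0335 (0.0483 to 0.146). None of these neighbours in the order overlapped in range over the 10 libraries. CYP26A1 had 10 counts over all libraries, with 0 to 3 in each, and ALDH1A2 had 21, with 0 to 5 in each. The ranges of these 2 genes overlapped. RARB had 0 counts among 424849685, which allows a level of up to 0.00706 CPM by a floor of 3 counts, for counting error only.

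**Figure D1:**
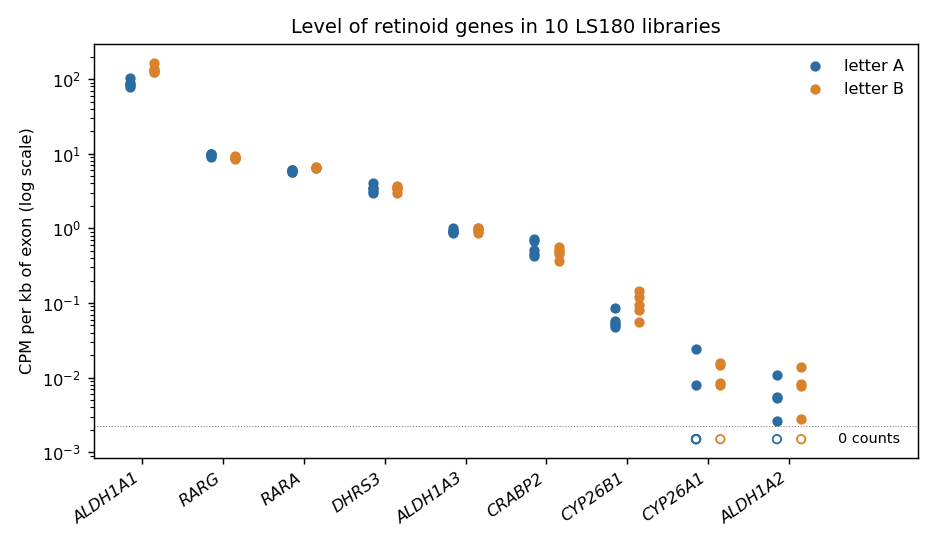
Level of 9 retinoid genes in each library, as CPM per kilobase of exon on a log axis, with A libraries in blue, B libraries in orange and libraries with 0 counts as open circles under the dotted line. RARB, with 0 counts in every library, is not drawn. ALDH1A1 lies above all other genes, and its B libraries lie above its A libraries.

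ALDH1A1 (ENSG00000165092, chr9:72900662-73080442, minus strand) encodes a cytosolic enzyme that makes retinoic acid. Its A libraries held 221 CPM in NTC1, 293 in NTC2, 245 in sg1, 241 in sg2 and 249.7 in sg3. Its B libraries held 389, 472, 372, 351 and 359 CPM in the same order. Every B library was above every A library, as for 10.2% of the 15462 genes tested by letter. NTC2 was the highest line in both letters. The mean was 250.04 ± 26.3 CPM in A and 389 ± 48.5 CPM in B (SD, n = 5 libraries). The B level exceeded the A level by 0.81 on the log2 scale in NTC1, 0.69 in NTC2, 0.61 in sg1, 0.54 in sg2 and 0.52 in sg3, a mean of 0.63 ± 0.12 (SD, n = 5 lines). Of 10766 genes at 5 CPM or more, 15 had a larger fitted rise in B. That rank describes the value by which the genes were chosen and is no test of it.

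The letters separated much of the transcriptome, which sets the background for the other genes. In a fit of all 10 libraries with line and letter as terms (edgeR quasi-likelihood test, Benjamini-Hochberg adjusted p under 0.05 over all 15462 genes tested), 32.1% of genes differed by letter, 15.9% higher and 16.2% lower in B. Of the 9 other retinoid genes, 6 passed the filter on low counts and 2 of those passed the test, RARA upwards and RARG downwards. CYP26A1, RARB and ALDH1A2 had too few counts to be tested. A share of 2 in 6 is near the background. The median log2 difference of the 6 was 0.03, and that of all genes tested 0.00. With DESeq2, RARA passed (adjusted p = 0.0459) and RARG did not (-0.11, adjusted p = 0.0537).

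Among the receptors, RARA and RARG moved in opposite directions. RARA (ENSG00000131759, chr17:40309192-40357643, plus strand) held 26.8, 27.3, 28.7, 28.9 and 28.5 CPM in the A libraries of NTC1, NTC2, sg1, sg2 and sg3. Its B libraries held 30.2, 30.3, 30.4, 31.6 and 31.5 CPM. The letters did not overlap, as for 10.2% of tested genes with B above A. RARA was 0.14 higher in B on the log2 scale (SE 0.03, edgeR adjusted p = 0.00790), and higher in 5 of 5 lines, as for 18.2% of tested genes. An antisense gene, RARA-AS1, overlaps it with 227 counts in all against 12491 for RARA, and the libraries do not mark strand.

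RARG (ENSG00000172819, chr12:53210567-53232980, minus strand), the most abundant receptor of the family here, held 48.0, 46.2, 50.6, 51.5 and 51.6 CPM in A. In B it held 45.6, 43.8, 47.7, 46.9 and 45.7 CPM. Each line was lower in B, as for 18.2% of tested genes, although the ranges of the letters overlapped. The log2 difference was -0.11 (SE 0.03, edgeR adjusted p = 0.0151). Without line sg2 (-0.10, adjusted p = 0.0661) or line sg3 (-0.09, adjusted p = 0.0878) the call ended, as it did when any single library of these lines was left out (-0.10 to -0.09, adjusted p from 0.0593 to 0.0970).

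**Figure D2:**
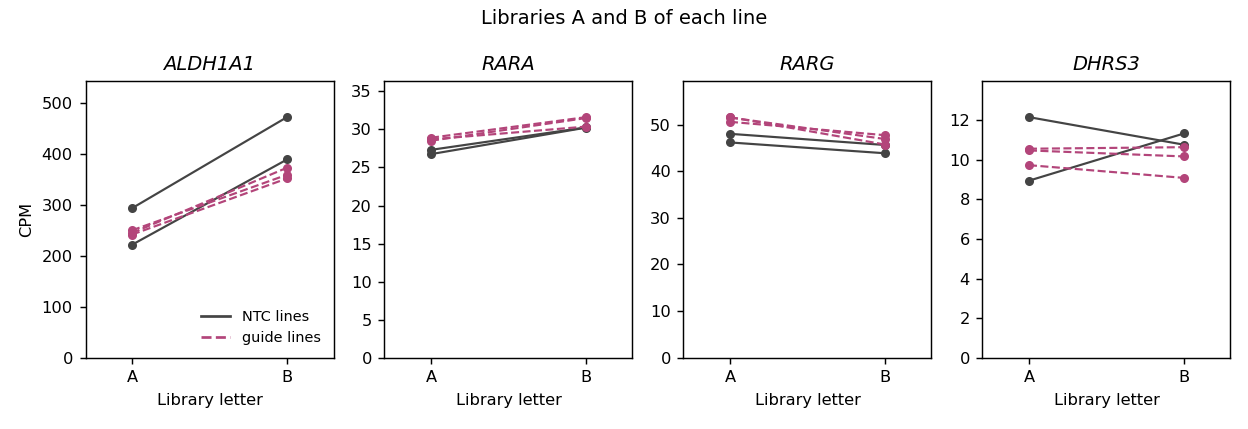
CPM of ALDH1A1, RARA, RARG and DHRS3 in the A and B library of each line, on axes that start at 0, with NTC lines solid and guide lines dashed. ALDH1A1 and RARA rise from A to B in 5 of 5 lines, RARG falls in 5 of 5, and DHRS3 does so in 3 of 5.

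DHRS3, a reductase that turns retinal back into retinol and a target of retinoic acid signalling in many cells, showed no common direction. DHRS3 (ENSG00000162496, chr1:12567910-12617731, minus strand) held 8.94, 12.2, 10.5, 9.73 and 10.6 CPM in A and 11.3, 10.8, 10.2, 9.08 and 10.6 CPM in B. It was higher in B in 2 of 5 lines, and NTC1 and NTC2 went opposite ways. The log2 difference was 0.01 (SE 0.07, 95% interval -0.15 to 0.16, edgeR adjusted p = 0.959). That interval spans 0.904-fold to 1.12-fold, so a change in DHRS3 as large as that of ALDH1A1 (1.55-fold as fitted) lay outside it. These libraries do not say how large a change in DHRS3 would follow one in ALDH1A1.

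The clearance and carrier genes were measured with little precision. CYP26B1, which degrades retinoic acid, held 0.427, 0.285, 0.242, 0.268 and 0.257 CPM in A and 0.613, 0.735, 0.281, 0.399 and 0.478 CPM in B. It was higher in B in 5 of 5 lines, as for 18.2% of tested genes. The log2 difference was 0.74 (SE 0.28, 95% interval 0.14 to 1.33), but it missed the threshold (edgeR adjusted p = 0.0554). The gene had 170 counts over all libraries. Without line sg1 it passed (0.83, adjusted p = 0.0485). CRABP2, a carrier that delivers retinoic acid to its receptors in the nucleus, held 0.399 to 0.794 CPM with a log2 difference of -0.22 (SE 0.24, edgeR adjusted p = 0.532).

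ALDH1A3, the other retinal dehydrogenase with measurable expression, differed little by letter. It held 5.27, 4.98, 5.38, 5.22 and 5.88 CPM in A and 5.76, 5.90, 5.65, 5.00 and 5.28 CPM in B. The letters overlapped almost fully, and the log2 difference was 0.04 (SE 0.08, 95% interval -0.13 to 0.22, edgeR adjusted p = 0.725). Its counts are uncertain, because the antisense gene AC015712.2 overlaps it with nearly as many counts (2132 against 2307 over all libraries).

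**Figure D3:**
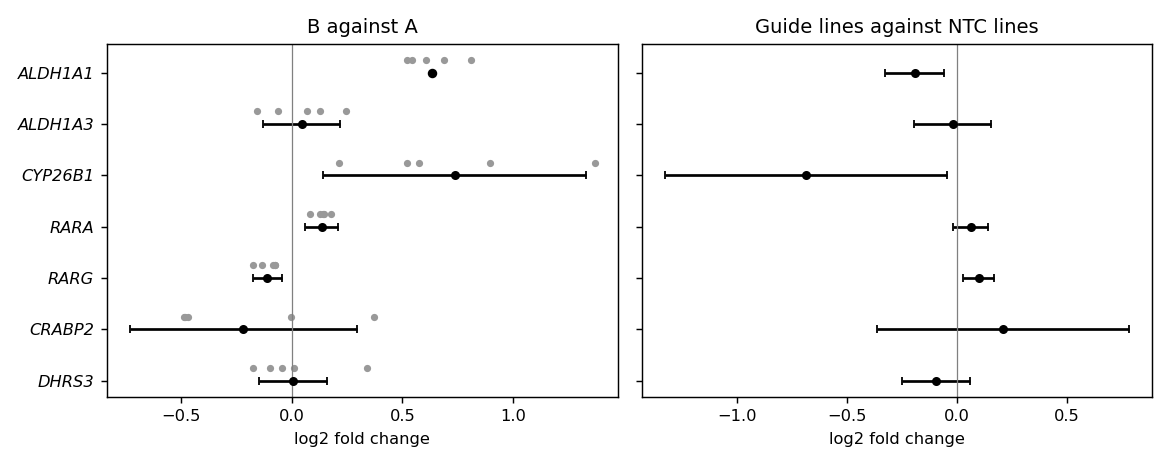
Fitted log2 fold change (black points) with 95% interval (bars) of the 7 retinoid genes tested, for B against A (left) and for guide lines against NTC lines (right). Intervals are not adjusted for the number of genes, grey points on the left are the differences of single lines, and ALDH1A1 has no interval there because that contrast chose it. On the left RARA and CYP26B1 lie above and RARG below 0, while ALDH1A3, CRABP2 and DHRS3 span 0. CYP26B1 did not pass the adjusted threshold.

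The B minus A difference of ALDH1A1 was smaller in the guide lines (0.52 to 0.61) than in the NTC lines (0.69 and 0.81). These line values led to the choice of the genes, so they are given without a test. For the 6 other tested genes, the letter by arm term in edgeR called 0, as it did 0% of all 16411 genes, with 941 genes at an unadjusted p under 0.05 and 0 of the 6 called by DESeq2. Their values ran from -0.67 for CRABP2 to -0.05 for RARA.

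Other markers moved with the letters beside ALDH1A1. Of 10 goblet cell genes 7 were higher and 1, REG4, lower in B, where 15.9% of all genes were higher and 16.2% lower, with MUC2 at 0.65 (SE 0.05) and FCGBP at 0.90 (SE 0.04). Their summed level was 983 to 1095 CPM in A and 1086 to 1323 CPM in B, and none was at 0. The colorectal epithelium markers summed to 7547 to 7726 CPM in A and 6155 to 7143 CPM in B, with 3 of 10 higher and 4 lower against the same background. The ribosomal protein share of counts was 6.97% to 7.43% in A and 6.59% to 6.83% in B. The part of these differences in the ALDH1A1 value was not tested.

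The wider set of 30 genes reported as induced by retinoic acid in other cells went both ways. The list was taken from general knowledge and not from these libraries. Of 16 tested members 3 rose and 3 fell in B, a share near the background of 32.1%, with a median log2 difference of 0.13 against 0.00 for all genes. Of the 14 others, 4 (HOXB1, MEIS2, CEBPE and RAI2) had 0 counts in every library, and TGM2, which encodes a transglutaminase widely used as a marker of retinoic acid exposure, had 3 counts in all.

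GPRC5A, an orphan receptor first described as induced by retinoic acid, fell from 176 ± 4.55 CPM in A to 131 ± 7.48 CPM in B (SD, n = 5 libraries; log2 -0.43, SE 0.03, edgeR adjusted p = 5.11e-07). RARRES3, a lipid-modifying enzyme named for its response to retinoids, fell from 3.38 ± 0.117 to 2.19 ± 0.224 CPM (log2 -0.63, SE 0.12, adjusted p = 0.000933). Both were lower in B in 5 of 5 lines, as were 18.2% of tested genes, opposite to ALDH1A1. CDX1, an intestinal transcription factor that is also in the epithelial marker list, fell by 0.09 (SE 0.03, adjusted p = 0.0264). NRIP1, a nuclear receptor corepressor, rose by 0.21 (SE 0.04, adjusted p = 0.000483).

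Of 14 tested receptor partners and co-regulators, 7 were higher and 0 lower in B, where 15.9% of all genes were higher and 16.2% lower. The other 7 did not pass, and the median of the 14 was 0.11 against 0.00 for all genes. The corepressor NCOR1 rose by 0.31 (SE 0.04), the acetyltransferase EP300 by 0.26 (SE 0.03) and the coactivator TRIM24 by 0.33 (SE 0.04). The partner receptor RXRA had a value of 0.05 (SE 0.03, adjusted p = 0.184), and the fatty acid and retinoid carrier FABP5 one of 0.03 (SE 0.03, adjusted p = 0.503). RXRG and the carrier CRABP1 had 0 counts in every library. These co-regulators serve many receptors.

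Of 14 tested retinol and retinal oxidoreductases, 1 was higher and 3 were lower in B, with a median of -0.05. That share is near the 32.1% of all genes that differed by letter. RDH10, the dehydrogenase that makes retinal from retinol, fell from 46.4 ± 1.98 to 40.4 ± 0.601 CPM (SD, n = 5 libraries; log2 -0.20, SE 0.03, edgeR adjusted p = 0.000551). RETSAT, which saturates retinol, fell by 0.15 (SE 0.03, adjusted p = 0.000845) and ADH5 by 0.09 (SE 0.03, adjusted p = 0.0360). The aldose reductase AKR1B1 rose by 0.14 (SE 0.03, adjusted p = 0.00150), and AKR1C3 stood at -0.02 (SE 0.07, adjusted p = 0.879).

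Of 6 tested genes of retinoid uptake and storage 1 passed, where 32.1% of all genes did. It was CES1, a carboxylesterase that can hydrolyse retinyl esters. It was 1.24 higher in B (SE 0.26, edgeR adjusted p = 0.00209), at 0.396 ± 0.1103 CPM in A and 0.956 ± 0.315 CPM in B (SD, n = 5 libraries). The abundant members had values of 0.04 (SE 0.03) for the lipoprotein receptor SCARB1, -0.08 (SE 0.04) for the acyltransferase DGAT1 and -0.14 (SE 0.05) for the lipase LIPE, with adjusted p from 0.0550 to 0.319. The retinol esterifying enzyme LRAT had 19 counts in all and was not tested.

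Of 14 tested aldehyde dehydrogenases outside the ALDH1A group, 5 were higher and 2 lower in B, where 15.9% and 16.2% of all genes were, with a median of 0.04 and values from -0.35 to 0.31. ALDH5A1 rose by 0.31 (SE 0.05, edgeR adjusted p = 0.000491), ALDH6A1 by 0.25 (SE 0.04, adjusted p = 0.000616), ALDH4A1 by 0.18 (SE 0.03, adjusted p = 0.000304) and mitochondrial ALDH2 by 0.18 (SE 0.03, adjusted p = 0.000903). These 4 enzymes act on amino acid, neurotransmitter and alcohol breakdown products. ALDH1B1, at 315 ± 11.7 CPM in A and 324 ± 6.90 CPM in B (SD, n = 5 libraries), had a value of 0.04 (SE 0.02, adjusted p = 0.235), ALDH18A1 one of 0.05 (SE 0.02, adjusted p = 0.176), and ALDH3A2 fell by 0.12 (SE 0.04, adjusted p = 0.0387).

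**Figure D4:**
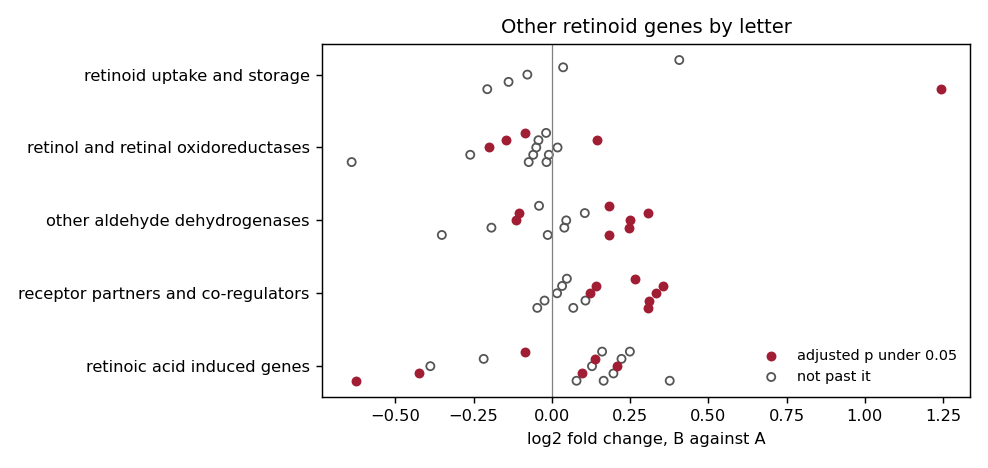
Log2 fold change of B against A for tested genes of 5 lists, 1 point per gene, filled where the edgeR adjusted p is under 0.05; vertical offsets within a list only separate points. The receptor partners and co-regulators have 7 filled points, all above 0, and the retinoic acid induced genes have 3 on each side.

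The 5 genes whose pattern over the 10 libraries was most like that of ALDH1A1 included RGMB, SEMA6A, UGT1A8 and KIAA1324. Likeness was the root mean square difference of log2 levels centred on each gene's mean, over 10756 genes at 5 CPM or more. The 5 genes scored 0.0998 to 0.126, against a median of 0.357 over all genes, and ALDH1A1 itself varied about its own mean by 0.347. RGMB, which encodes a co-receptor of bone morphogenetic proteins, rose from 85.2 to 98.9 CPM in A to 114 to 148 CPM in B. SEMA6A, a semaphorin, held 5.96 to 8.50 CPM in A and 8.86 to 12.04 CPM in B. Counts of UGT1A8 are uncertain, since the genes of its locus share exons. The likeness was largely a shared difference between letters, and it is a description of these libraries.

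Between the arms, 0 of the 7 tested retinoid genes passed (edgeR quasi-likelihood test on counts summed per line, 3 guide lines against 2 NTC lines), where 0.0231% of 17335 genes did. Of all genes tested, 0.0173% passed as higher and 0.00577% as lower in guide lines. ALDH1A1, CYP26B1 and RARG, 3 of the 7, had an unadjusted p under 0.05, as had 1384 genes in all. DESeq2 called 0 of the 7, but gave an adjusted p for ALDH1A1 alone. None of the 7 had all 6 guide libraries above all 4 NTC libraries or all below, as 0.496% and 0.433% of genes had. The median log2 difference of the 7 was -0.02, against 0.00 for all genes.

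The mean of ALDH1A1 over the NTC lines was 344 ± 54.7 CPM (SD, n = 2), and over the guide lines 303 ± 6.13 CPM (SD, n = 3). The line means were 305 for NTC1, 382 for NTC2, 308 for sg1, 296 for sg2 and 304 for sg3. NTC2 stood apart, and NTC1 lay within the range of the guide lines. The log2 difference was -0.19 (SE 0.06, 95% interval -0.33 to -0.06, edgeR adjusted p = 0.436). It was -0.03 without line NTC2 (adjusted p = 0.940) and -0.34 without line NTC1, which passed (adjusted p = 0.00273), so the value depended on which control line was kept. Of single libraries, leaving out NTC1 A gave -0.35 (edgeR adjusted p = 0.0228) and leaving out NTC2 B gave 0.0086 (adjusted p = 0.982). Leaving out 1 library leaves its line with 1 letter only, so both values mix letter with arm. ALDH1A1 also passed with no filter on low counts, so the call depended on that choice too. The goblet cell genes had a median of -0.19 between the arms, with 10 of 10 values negative and 0 called; their part in the ALDH1A1 value was not tested.

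Both receptors were slightly higher in the guide lines by rank, without a call. Within A and within B, each guide line exceeded both NTC lines for RARA and for RARG, as for 2.11% of genes tested. RARG stood at 45.9 ± 1.28 CPM in NTC and 49.0 ± 0.304 CPM in guide lines (log2 0.10, SE 0.03, edgeR adjusted p = 0.449), and RARA at 28.6 ± 0.208 and 29.9 ± 0.370 CPM (0.06, SE 0.04, adjusted p = 0.708), with SD over 2 and 3 lines. GC-rich transcripts tended to have higher values in guide lines (rank correlation across genes, rho 0.503 over 9529 genes, which are not independent replicates), and RARA and RARG transcripts are 62.5% and 60.9% GC. With a GC correction the values were 0.02 for RARA and 0.06 for RARG. ALDH1A1 transcripts are 43.1% GC, and the gene had a lower value in guide lines (-0.19). CYP26B1 at 56.8% GC (-0.69) and DHRS3 at 56.6% GC (-0.09) had lower values too. The part of GC content in the receptor and ALDH1A1 values was not tested.

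CYP26B1 was lower in each guide line than in both NTC lines within A and within B, as for 1.64% of genes tested. It stood at 0.515 ± 0.00741 CPM in NTC and 0.321 ± 0.0540 CPM in guide lines, with SD over 2 and 3 lines and a log2 difference of -0.69 (SE 0.30, 95% interval -1.33 to -0.04, edgeR adjusted p = 0.596). DHRS3 had a value of -0.09 (SE 0.07), ALDH1A3 one of -0.02 (SE 0.08) and CRABP2 one of 0.21 (SE 0.26), with adjusted p from 0.786 to 0.977. Their intervals were -0.25 to 0.06, -0.19 to 0.16 and -0.36 to 0.78.

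By guide, 0 of the 7 genes passed in sg1, sg2 or sg3 against the NTC lines, with 0 at an unadjusted p under 0.05 (edgeR fit of 10 libraries with 5 line means and no letter term). In each of these comparisons 0.00609% of 16411 genes passed, the only gene being RNASE1. The 3 comparisons share the NTC libraries. Their spread is that between the A and B library of a line, so it includes the letter difference. For a gene that differs by letter, such as ALDH1A1, the lack of a call there says little about the guides. ALDH1A1 had values of -0.14, -0.20 and -0.17 in sg1, sg2 and sg3 (SE 0.29 in each), and CYP26B1 values of -0.97 (SE 0.50), -0.63 (SE 0.48) and -0.49 (SE 0.47). Between the controls, 0% of genes passed in NTC2 against NTC1, with 282 at an unadjusted p under 0.05 and 0 of the 7 called by DESeq2. ALDH1A1 was at 0.33 (SE 0.33) and DHRS3 at 0.17 (SE 0.12) there, both larger in size than the difference between arms.

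Of the 5 lists, 0 genes passed between the arms, with 7 to 18 tested in each. The medians ran from -0.09 for retinoid uptake and storage to 0.03 for the receptor partners and co-regulators.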

How the data were processed

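The deposited table held expected counts per gene, estimated by RSEM per the name of the table; 7.12% of values were not whole. The submitters' processing notes name hg38 as build and list TopHat2 2.0.8, CASAVA 1.8.2 and FastQC 0.11.2, without saying what each did. Reads that match more than 1 gene are split by RSEM, which leaves counts of overlapping genes uncertain.

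Counts were rounded (by at most 0.5) and tested with edgeR 4.0.16 in R 4.3.3 (TMM, filterByExpr with a minimum count of 10, glmQLFit and glmQLFTest, two-sided, Benjamini-Hochberg adjusted over all genes tested, threshold 0.05). The letter comparison used all 10 libraries with line as a block, and arms used counts summed per line. Guides used all 10 libraries with 5 line means and no letter term. SE is the size of a fold change over the root of its F value. CPM were scaled by TMM. Alternatives used DESeq2 1.42.0, other filters, scaling, blocks, a GC correction and left-out libraries or lines. Scripts were tested on simulated data. Positions and exon lengths come from GENCODE release 29 on GRCh38 (58597 genes matched) and promoters from RefSeq on GRCh38.p14, with all 10 genes matched.

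The genes, lists and tests were chosen with earlier results of these data known. Named list genes were the 3 most abundant and up to 4 with the smallest p past the threshold; markers and genes with few counts were named as checks. Some genes that this rule picks are not reported here.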

Additional observations from a re-analysis of the deposited data

Results flagged for a closer look

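CYP26B1 in the A library of NTC1 lay far from the other A libraries, at 0.427 CPM against 0.242 to 0.285 CPM in the other 4. These are 18 counts against 10 to 12, so counting error is large. The gap to the nearest library was 0.770 of the range of the 5. This was 1 of 35 groups of values examined for the 7 tested genes, and chance gives about 1 in 20.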

How the results depend on the processing

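Of the genes other than ALDH1A1, 2 passed by letter. The count was 1 with DESeq2, without line sg2 and without line sg3, and 3 without line sg1, where CYP26B1 passed as well. It was 1 to 2 with 1 library left out. RARA passed in all 20 alternatives. By letter, leaving out 1 library nearly repeats leaving out its line, so the 20 are not separate checks. The rise of ALDH1A1 in B ran from 0.59 to 0.66 over the same 20. Between the arms the count of 0 became 1, ALDH1A1, with no filter on low counts and without line NTC1, and was 0 to 1 with 1 library left out. Leaving out 1 library of an arm mixes letter with arm in the summed lines. With the letter as a replicate block 0 of the 7 passed between arms (ALDH1A1 -0.15, edgeR adjusted p = 0.214), for any guide or for NTC2 against NTC1, so the block changed no call of theirs. Same-lettered libraries deviated together in all 10 pairs of lines (r from 0.0983 to 0.247 over 15462 genes, over 0.1 in 9 pairs, and from 0.483 to 0.779 over 9527 genes at 10 CPM or more).

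Values that changed sign were those without a call, and the cause was not tested. By letter, DHRS3 was -0.075 without line NTC1 and ALDH1A3 -0.0049 without line NTC2. Between arms, ALDH1A3 was 0.10 with A libraries alone and 0.021 without line sg2, and CRABP2 -0.15 with B libraries alone. The letter difference between arms was 0.13 for DHRS3 without line NTC1 and 0.057 for CYP26B1 without line NTC2. With 1 library left out, ranges that crossed 0 by letter were -0.076 to 0.054 (DHRS3) and -0.0074 to 0.097 (ALDH1A3), and between arms -0.36 to 0.0086 (ALDH1A1) and -0.075 to 0.035 (ALDH1A3). For sg1 they were -0.48 to 0.13 (ALDH1A1), -0.049 to 0.076 (ALDH1A3) and -0.14 to 0.028 (DHRS3). For sg2 they were -0.50 to 0.041 (ALDH1A1) and -0.38 to 0.098 (CRABP2). For sg3 they were -0.45 to 0.069 (ALDH1A1), -0.055 to 0.10 (ALDH1A3), -0.10 to 0.064 (DHRS3), -0.0075 to 0.17 (RARG) and -0.0048 to 0.14 (RARA). For NTC2 against NTC1 they were -0.063 to 0.78 (ALDH1A1), -0.071 to 0.10 (RARA), -0.15 to 0.097 (ALDH1A3), -0.87 to 0.49 (CYP26B1) and -0.30 to 0.064 (CRABP2). Depth limits CYP26A1, ALDH1A2 and RARB, which were not tested.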
